A study of Homo sapiens with 15 samples.

Results

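The 10 human globin genes were followed in K562 cells, a line from chronic myeloid leukaemia that carries an erythroid programme. They were taken by name as the protein-coding members of the alpha-like cluster on chromosome 16 (HBZ, HBM, HBA2, HBA1 and HBQ1) and of the beta-like cluster on chromosome 11 (HBE1, HBG2, HBG1, HBD and HBB), and all 10 were found among the 57500 genes of the count tables. RNA sequencing covered 15 libraries in 5 groups of 3, all collected at 1 h. The genotype label is WT for the control and Cas9FCPF without or with sgRNA for the others. The control cells were labelled as not treated, whereas the design text of the series names DMSO, and no source says that they were transfected. The other groups were transfected with Cas9FCPF, a Cas9 protein that carries the FCPF peptide tag, and received 1 µM of a compound. With JQ1 there was a group with sgRNA and a group without it, and likewise with JQ1-FCPF, which makes 4 treated groups. JQ1 blocks the bromodomains of BET proteins, which read acetylated histones, and JQ1-FCPF is the form of it named for the tag on Cas9. Which sequence the sgRNA targets is not in the labels. Each comparison with the control therefore holds transfection, Cas9FCPF and compound together. No source says whether the 3 libraries of a group were grown apart. The p-values therefore refer to the spread between these libraries alone, and part or all of it may be technical.

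Haemoglobin is built from pairs of alpha-like and beta-like chains, and each cluster lies on its chromosome in the order in which its genes are used in development. HBZ and HBE1 encode the zeta and epsilon chains of the embryo, HBG1 and HBG2 the gamma chains of the fetus, HBA1 and HBA2 the alpha chains used from fetal life on, and HBB and HBD the beta and delta chains of the adult. K562 cells are known for making embryonic and fetal chains with little or no beta chain, and globin mRNAs are known as long-lived, which limits how fast a change in transcription can show in their level.

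The libraries held between 12625669 and 17544518 counts, and the globin genes took between 0.1105% and 0.1774% of them. Mitochondrially encoded genes took 2.308% to 7.457% of counts and ribosomal protein genes 8.442% to 12.151%. A pair of libraries stood apart. JQ1 with sgRNA replicate 1 had the highest mitochondrial share, the lowest ribosomal protein share and the lowest globin share of the 15. The globin share comes from the genes tested below, so fits without this library are not independent of their levels. JQ1-FCPF with sgRNA replicate 2 lay at 32.2 on the first principal component, where the other libraries of its group lay at -16.7 and -14.8 and the JQ1 libraries between 16.8 and 24.6. Counts of calls in the groups that hold these are given with and without them. The labels call the cells lymphoblasts. All 7 erythroid markers were measured above the filter on low counts, among them GATA1 at 198 to 299 CPM (read counts scaled to the size of the library, here with TMM factors). Of the defining B cell markers, MS4A1 and PAX5 had a median of 0. The T cell marker CD3D stood at 17.4 to 32.4 CPM, but CD2 and NCAM1 had a median of 0. Fibroblast markers summed to 1.82 to 3.5 CPM in the control and to 4.41 to 6.74 CPM in JQ1-FCPF with sgRNA, with 1 of 5 above the filter, and the 7 erythroid markers to 1160 to 1210 and 869 to 936 CPM. The part of these shifts in the results was not tested. The epithelial markers EPCAM (64 to 81.9 CPM) and KRT19 (95.3 to 164 CPM) were present, whereas CDH1, KRT5 and KRT14 had a median of 0.

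The adult delta gene HBD is shown by its promoter because it was 1 of the 3 globin genes called changed below, beside HBM, the only other globin gene with a promoter entry in the RefSeq table used. The table (GRCh38.p14) held 2 of the 10 members. Each line gives the 250 bases before the start site, on the gene's own strand, 5′ to 3′. The HBD sequence lies at chr11:5234484-5234733 on the minus strand and the HBM sequence at chr16:165728-165977 on the plus strand.
HBD promoter: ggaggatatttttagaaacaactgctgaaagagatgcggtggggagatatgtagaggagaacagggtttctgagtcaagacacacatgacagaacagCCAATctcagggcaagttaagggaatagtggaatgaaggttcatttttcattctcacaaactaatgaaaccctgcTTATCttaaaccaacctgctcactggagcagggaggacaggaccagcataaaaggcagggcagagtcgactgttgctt
HBM promoter: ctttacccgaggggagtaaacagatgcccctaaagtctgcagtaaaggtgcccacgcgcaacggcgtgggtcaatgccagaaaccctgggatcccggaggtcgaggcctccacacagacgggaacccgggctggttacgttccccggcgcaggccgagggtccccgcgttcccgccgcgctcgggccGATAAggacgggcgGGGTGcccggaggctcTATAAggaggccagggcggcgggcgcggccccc
Capitals mark matches, on either strand, to CACCC (the core of the box bound by KLF factors), to CCAAT, to GATAA (the core of the GATA site) and to TATAA. None of the marked matches overlap each other.

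HBD held CCAAT at 153 to 149 bases before the start and GATAA on the opposite strand at 78 to 74 bases, with no match to CACCC or TATAA in the window. HBM held GATAA at 63 to 59 bases, CACCC on the opposite strand at 49 to 45 bases and TATAA at 33 to 29 bases. HBM was richer in G and C (69.2%) than HBD (45.2%). Among 35116 promoters of the same table, 54.7% held CACCC, 32.0% CCAAT, 20.4% GATAA and 18.9% TATAA, so each of these matches is common. A match is a run of letters and not a measured binding site.

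The genes lie close together, and their annotated exons overlap or repeat, which limits how far single copies can be read apart. Coordinates are those of the deposited tables, which match GRCh38. HBZ (ENSG00000130656) lies at chromosome 16, 152687 to 154503, HBM (ENSG00000206177) at 153892 to 166768, HBA2 (ENSG00000188536) at 172847 to 173710, HBA1 (ENSG00000206172) at 176680 to 177522 and HBQ1 (ENSG00000086506) at 180453 to 181181, all on the plus strand. On chromosome 11, all on the minus strand, HBB (ENSG00000244734) lies at 5225464 to 5229395, HBD (ENSG00000223609) at 5232678 to 5235370, HBG1 (ENSG00000213934) at 5248083 to 5249892, HBG2 (ENSG00000196565) at 5248274 to 5645789 and HBE1 (ENSG00000213931) at 5268345 to 5505617. HBG2 and HBE1 have long spans because their models include far exons, some of which they share with the olfactory receptor gene OR51B5.

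HBA1 and HBA2 encode the same alpha chain, and 80.7% of the 75-base windows of the HBA1 transcript were also found in HBA2. HBG1 shared 44.7% of such windows with HBG2, and HBG2 shared 58.3% of its windows with HBG1. HBZ shared 41.6% with HBM or the pseudogene HBZP1. The HBM model of the tables includes the exon of HBZ at 153892 to 154096. That exon is 205 bases long and holds only part of the shared windows. For HBQ1, HBE1, HBB and HBD no 75-base window was shared with another of these genes. Levels of single copies within the alpha pair, within the gamma pair and among HBZ, HBM and HBZP1 are therefore uncertain. How reads with several matches were counted is not given in the sources used here. HBE1 shared 49 of its 928 exonic bases with OR51B5, and HBD and HBB shared none with another gene. Other members shared more. HBG1 shared 214 of its 808 exonic bases with HBG2. Counting genes on either strand, 228 bases of HBG1 were shared with no other gene. The same held for 1054 of 2241 bases of HBG2, 550 of 755 of HBZ and 506 of 916 of HBM.

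The embryonic and fetal beta-like genes dominated the globin mRNA of these cells. HBG2 took 47.6% of all globin reads, HBE1 22.2% and HBG1 10.9%. Of the alpha-like genes, HBA1 took 6.59%, HBZ 6.14%, HBQ1 (theta) 3.07% and HBA2 2.87%. HBD took 0.524%, HBM (mu) 0.0386% and HBB 0.0219%. Per kilobase of exon in the tables, HBE1 averaged 355 CPM per kilobase (range over 15 libraries 274 to 451), HBG2 315 (198 to 380), HBG1 199 (145 to 255), HBZ 120 (71.6 to 152), HBA1 117 (75.9 to 133), HBQ1 84.9 (56.6 to 108), HBA2 49.6 (33.8 to 57.6), HBD 7.29 (3.56 to 10.9), HBM 0.625 (0.0635 to 1.42) and HBB 0.277 (0 to 1.56). In this order the ranges of neighbouring genes overlapped throughout, except between HBA2 and HBD and between HBD and HBM. The length used for HBG2, 2241 bases, includes its far exons, which lowers its level per kilobase.

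HBM and HBB were at the edge of detection. HBM had 127 reads over all libraries (1 to 17 per library), and HBB, the adult beta chain, had 72 (0 to 24 per library). HBB did not pass the filter on low counts, so that 9 of the 10 genes entered the tests. Of 4 other globin-fold genes, 0 passed the filter. Cytoglobin (CYGB) reached at most 0.493 CPM, and no read of neuroglobin (NGB) was counted in any library.

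**Figure D1:**
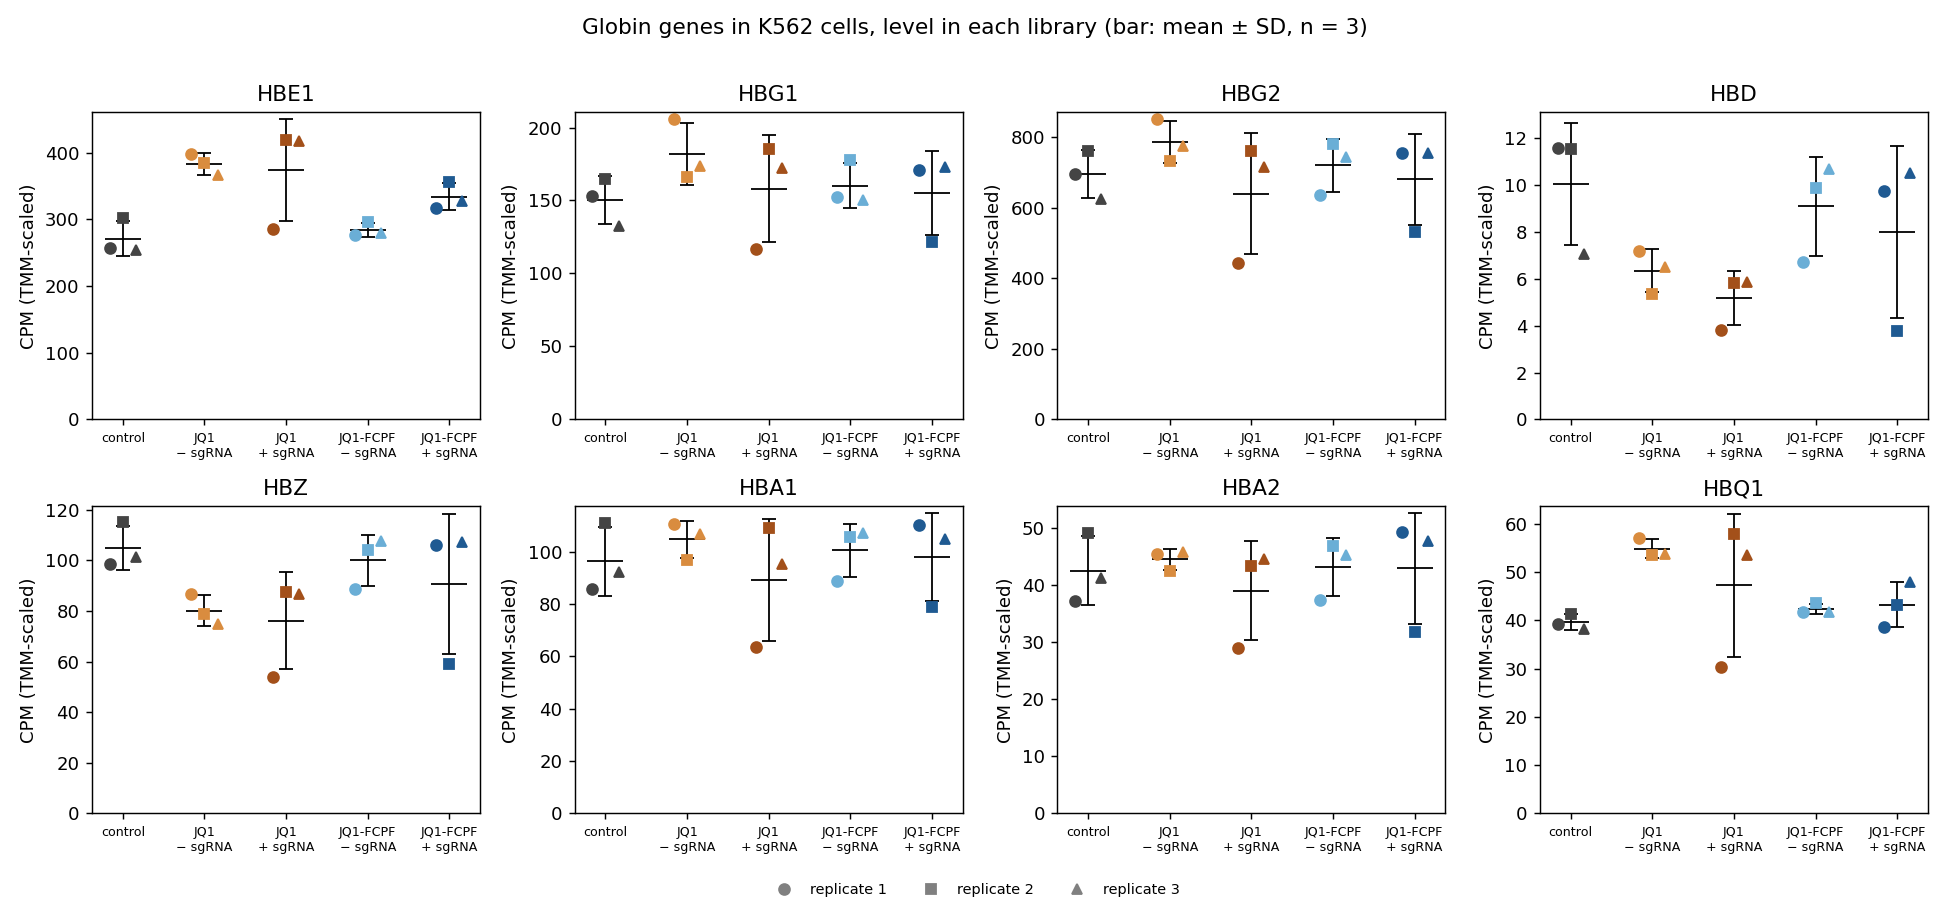
Level of 8 globin genes in each of the 15 libraries, in CPM scaled by TMM on axes that start at 0. Points are libraries, with the shape giving the replicate, and bars give the mean and SD of 3 libraries. HBE1 was high in both JQ1 groups except for replicate 1 of JQ1 with sgRNA, and that library and replicate 2 of JQ1-FCPF with sgRNA were the lowest 2 of the 15 for HBG2, HBA1 and HBZ.

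In JQ1 without sgRNA, set against the control, HBE1, the embryonic epsilon chain, rose, and so did HBQ1, the theta gene of unclear function. In such bulk samples fewer cells with a transcript and less of it per cell cannot be told apart. In CPM, HBE1 stood at 257, 302 and 254 in control replicates 1 to 3 and at 398, 385 and 366 in JQ1 without sgRNA. The lowest JQ1 library lay above the highest control library. The rise was 1.41-fold (log2 fold change 0.50 ± 0.12 SE, 95% CI, the confidence interval, 0.25 to 0.75, edgeR adjusted p = 0.0123). Here and below, p-values come from the quasi-likelihood test of edgeR and were adjusted over all genes tested by the method of Benjamini and Hochberg. HBQ1 stood at 39.3, 41.4 and 38.2 CPM in the control and at 57.2, 53.6 and 53.8 CPM in JQ1 without sgRNA, again without overlap. It rose 1.38-fold (log2 fold change 0.47 ± 0.15 SE, edgeR adjusted p = 0.0495), just inside the threshold.

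These were 2 of 9 globin genes tested, both higher, where 12.3% of all 15517 genes tested were called in either direction and 6.07% as higher. Over so few genes the share is coarse. The median log2 fold change of the 9 was 0.12, against 0 for all genes. DESeq2 called the same 2 genes. HBE1 was no longer called without control replicate 1 (edgeR adjusted p = 0.0554), control replicate 3 (0.0728) or JQ1 without sgRNA replicate 1 (0.0544), and the call of HBQ1 was lost in 11 of 23 alternatives, among them leaving out any 1 of the 6 libraries compared (edgeR adjusted p = 0.0857 to 0.162). Without the pair of libraries that stood apart, neither of them in this comparison, 5 of 10 genes tested were called, where 26.9% of all genes were. With no filter on low counts 4 were called (4.98% of all genes), and with only the 2 groups in the fit 5 were (31.4%).

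HBZ, the embryonic alpha-like chain and the developmental counterpart of HBE1, had the opposite sign. It stood at 98.7, 115 and 101 CPM in the control and at 86.9, 78.7 and 74.7 CPM in JQ1 without sgRNA, so that the groups did not overlap. The log2 fold change of -0.39 (95% CI -0.76 to -0.02) did not pass (edgeR adjusted p = 0.159). Without the pair of libraries that stood apart it passed, at -0.38 ± 0.08 SE (edgeR adjusted p = 0.00118). HBD stood at 11.6, 11.6 and 7.04 CPM in the control and at 7.20, 5.36 and 6.52 CPM in JQ1 without sgRNA. Its log2 fold change of -0.65 (95% CI -1.23 to -0.08) did not pass either (edgeR adjusted p = 0.126), and passed without that pair (-0.64 ± 0.18 SE, edgeR adjusted p = 0.00871).

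The fetal gamma and the alpha genes, which make up most of the remaining reads, were not called. HBG2 stood at 697, 762 and 626 CPM in the control and at 851, 734 and 775 CPM in JQ1 without sgRNA, with overlap. Its log2 fold change was 0.18 (95% CI -0.16 to 0.52, edgeR adjusted p = 0.506). HBG1 stood at 153, 165 and 133 CPM against 206, 166 and 173 CPM, with a log2 fold change of 0.28 (95% CI -0.04 to 0.59, edgeR adjusted p = 0.24). HBG1 passed without the pair of libraries that stood apart (0.28 ± 0.09 SE, edgeR adjusted p = 0.0181). Over the 15 libraries HBA1 ran from 63.4 to 111 CPM and HBA2 from 29 to 49.3 CPM. HBA1 had a log2 fold change of 0.12 (95% CI -0.20 to 0.44) and HBA2 one of 0.07 (95% CI -0.27 to 0.40). Neither was called.

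JQ1 with sgRNA was compared with the same control libraries. HBE1 rose again and HBD fell. HBE1 stood at 286, 419 and 417 CPM in replicates 1 to 3. Replicate 1 lay inside the control range, and the others lay above every control library. The rise was 1.38-fold (log2 fold change 0.47 ± 0.12 SE, 95% CI 0.21 to 0.72, edgeR adjusted p = 0.016). HBD, which contributes the minor adult beta-like chain, stood at 3.84, 5.83 and 5.87 CPM, below all 3 control libraries. It was 1.94-fold lower (log2 fold change -0.95 ± 0.28 SE, 95% CI -1.53 to -0.37, edgeR adjusted p = 0.0276), on 66, 89 and 96 reads against 182, 164 and 124.

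That is 1 higher and 1 lower of 9 tested, where 14.2% of all genes were called. The call of HBE1 was lost without control replicate 1 (edgeR adjusted p = 0.0603), control replicate 3 (0.0812), or JQ1 with sgRNA replicate 2 (0.0711) or 3 (0.0725). The call of HBD was lost without control replicate 1 (0.091), control replicate 2 (0.0997) or JQ1 with sgRNA replicate 1 (0.0954). HBZ stood at 54.1, 87.7 and 86.8 CPM, below all control libraries, with a log2 fold change of -0.46 (95% CI -0.83 to -0.09) that did not pass (edgeR adjusted p = 0.0858). HBZ passed in 3 of 23 alternatives, among them with no filter on low counts (-0.48, edgeR adjusted p = 0.00154). Another was without JQ1-FCPF with sgRNA replicate 2 (edgeR adjusted p = 0.0152), a library outside this comparison. HBQ1 stood at 30.4, 57.9 and 53.5 CPM, with replicate 1 under and the others over the control range, and its log2 fold change of 0.25 (95% CI -0.07 to 0.57) did not pass (edgeR adjusted p = 0.28).

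Replicate 1 was the lowest of the 3 for each of the 8 globin genes with more than a few reads. Without it and the other library that stood apart, 4 of 10 genes tested were called, where 22.8% of all genes were. HBE1 then rose with a log2 fold change of 0.62 ± 0.08 SE (edgeR adjusted p = 4.7e-06), HBQ1 rose by 0.49 ± 0.09 (0.000292), HBZ fell by 0.27 ± 0.09 (0.0374) and HBD fell by 0.77 ± 0.20 (0.00627). With 2 libraries left in this group, the directions were those seen in JQ1 without sgRNA.

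**Figure D2:**
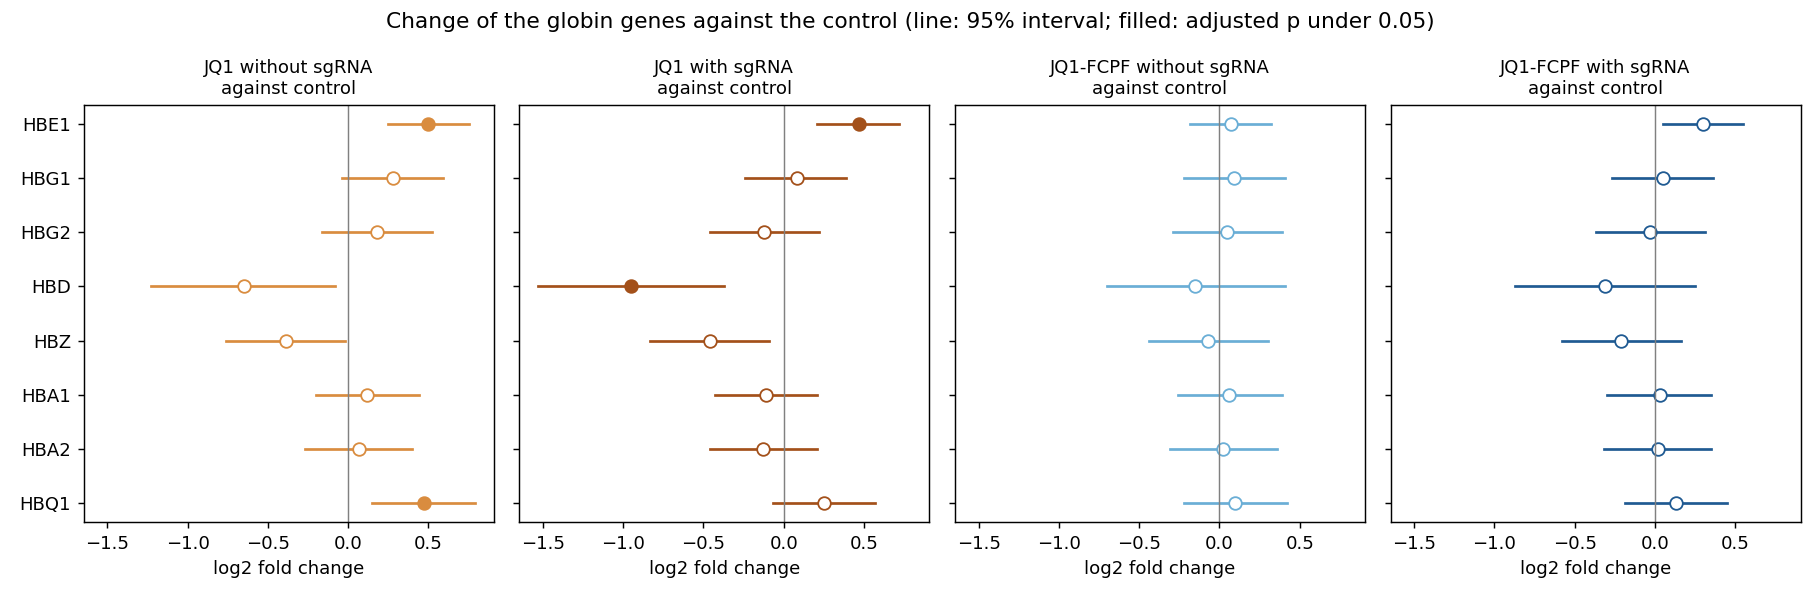
Log2 fold change against the control, with 95% CIs, for 8 globin genes in each of the 4 treated groups. Filled points passed the test at an adjusted p under 0.05, which were HBE1 and HBQ1 in JQ1 without sgRNA and HBE1 and HBD in JQ1 with sgRNA. The 4 panels share the same 3 control libraries.

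JQ1-FCPF without sgRNA left the globin genes near the control. HBE1 stood at 277, 296 and 280 CPM and its log2 fold change was 0.07 (95% CI -0.18 to 0.32). HBZ stood at 88.6, 104 and 108 CPM (log2 fold change -0.07, 95% CI -0.44 to 0.30) and HBD at 6.71, 9.89 and 10.7 CPM (-0.15, 95% CI -0.70 to 0.41). None of 9 genes was called by edgeR or DESeq2, and 0 had an unadjusted p under 0.05, where edgeR called 0.00644% of all genes, 1 gene. The intervals still leave room for changes of HBE1 up to 0.32 on the log2 scale.

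JQ1-FCPF with sgRNA gave no called globin gene against the control either, by edgeR or DESeq2, where 7.21% of all genes were called by edgeR, and 1 of the 9 had an unadjusted p under 0.05. That gene was HBE1, at 317, 356 and 328 CPM, above every control library, with a log2 fold change of 0.30 (95% CI 0.05 to 0.55, edgeR adjusted p = 0.144). It passed without JQ1 with sgRNA replicate 1 (0.31, edgeR adjusted p = 0.0253), a library outside this comparison that enters the shared spread estimate. HBZ stood at 106, 58.9 and 107 CPM and HBD at 9.73, 3.78 and 10.5 CPM, with replicate 2 far below the other libraries of its group in both. Their log2 fold changes were -0.21 (95% CI -0.58 to 0.16) and -0.31 (95% CI -0.87 to 0.25), and both became 0.03 without replicate 2. HBG2 in that library stood at 533 CPM, beside 756 CPM in each of the other libraries.

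HBB was counted mainly in this group. Replicates 1 to 3 of JQ1-FCPF with sgRNA held 24, 0 and 14 HBB reads. The 12 libraries of the other groups held 1 to 8 reads each, the 8 being in control replicate 3. The library at 0 allows a level of up to 0.236 CPM (3 reads, counting error only). When no filter on low counts was set, HBB was called higher than in JQ1-FCPF without sgRNA (log2 fold change 2.66, edgeR adjusted p = 0.00283, where 2.83% of all genes were called) and than in the control (1.94, edgeR adjusted p = 0.0291, 3.26% of all genes). These calls rest on 38 reads from 2 libraries, with the third at 0. Without the pair of libraries that stood apart, HBB passed the filter through those 2 libraries alone, so its calls in that setting are no support and are not given. Of the other 9 genes, that setting called HBE1 against the control (0.26 ± 0.08 SE, edgeR adjusted p = 0.0417), where 11.1% of all genes were called. The interaction of compound and sgRNA for HBB did not pass (2.42, edgeR adjusted p = 0.496).

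The effect of the sgRNA itself was read within each compound. Under JQ1, 0 of 9 globin genes were called by edgeR or DESeq2 and 0 had an unadjusted p under 0.05, where edgeR called 0.0129% of all genes. HBE1 differed by -0.03 on the log2 scale (95% CI -0.29 to 0.22) and HBG2 by -0.30 (95% CI -0.64 to 0.04). Under JQ1-FCPF, 0 of 9 were called by either tool and 0 had an unadjusted p under 0.05, although edgeR called 6.25% of all genes. HBE1 was higher in each of the 3 libraries with sgRNA than in each of those without, by 0.23 on the log2 scale (95% CI -0.02 to 0.48, edgeR adjusted p = 0.279). The difference between the effects of the sgRNA under the 2 compounds, the interaction, was called for 0 of 9 genes by both tools, with 0 at an unadjusted p under 0.05, where edgeR called 0.786% of all genes. For HBE1 it was 0.27 (95% CI -0.09 to 0.62, edgeR adjusted p = 0.5).

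The 2 compounds were compared at the same dose and time. Without sgRNA, HBE1 was 1.35-fold lower with JQ1-FCPF than with JQ1 (log2 difference -0.43 ± 0.12 SE, 95% CI -0.68 to -0.18, edgeR adjusted p = 0.0357), and the libraries did not overlap. It was the only 1 of 9 globin genes called, where 7.8% of all genes were, and DESeq2 called it too. The call was lost on leaving out any 1 of the 6 libraries compared (edgeR adjusted p = 0.0707 to 0.131). HBQ1 was also lower in every JQ1-FCPF library (41.8, 43.6 and 41.7 CPM) than in every JQ1 library, by 0.37 on the log2 scale (95% CI of the difference -0.69 to -0.05), and did not pass (edgeR adjusted p = 0.134). HBZ was higher in every JQ1-FCPF library, with a log2 difference of 0.32 (95% CI -0.05 to 0.69, edgeR adjusted p = 0.276). With only the 2 groups in the fit 3 were called (20.6% of all genes). Without the pair of libraries that stood apart, 4 of 10 genes tested were called (HBE1 and HBQ1 lower, HBZ and HBD higher), where 22.6% of all genes were.

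With sgRNA, no globin gene was called between the compounds by edgeR or DESeq2, where 2.95% of all genes were called by edgeR, and 1 of 9 had an unadjusted p under 0.05. HBE1 differed by -0.17 (95% CI -0.42 to 0.09) and HBG2 by 0.09 (95% CI -0.25 to 0.43). Each of these groups holds 1 of the libraries that stood apart. Without both, 4 of the 9 genes were called, HBB left aside, where 20.2% of all genes were. HBE1 was lower with JQ1-FCPF (-0.36 ± 0.09 SE, edgeR adjusted p = 0.00606), as was HBQ1 (-0.35 ± 0.10 SE, 0.016). HBZ (0.30 ± 0.10 SE, 0.035) and HBD (0.80 ± 0.22 SE, 0.0101) were higher. With 2 libraries left in each group, little weight can be put on these. With no filter and all libraries, HBD was called higher with JQ1-FCPF (0.66, edgeR adjusted p = 0.0222), where 2.08% of all genes were called. HBB was called too, on reads from 2 libraries of JQ1-FCPF with sgRNA, so its call is no support.

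Ratios between globin genes within a library need no scaling between libraries. They were chosen after the levels had been seen, so they are given with no test. The ratio of HBE1 to HBZ reads was 2.61, 2.62 and 2.51 in the control. It was 4.59, 4.89 and 4.90 in JQ1 without sgRNA and 5.29, 4.78 and 4.81 in JQ1 with sgRNA. The low library of the last group, replicate 1, had the highest of those 6 ratios, so its low levels were shared by both genes. In JQ1-FCPF without sgRNA the ratio was 3.13, 2.84 and 2.60. In JQ1-FCPF with sgRNA it was 2.99 and 3.06 in replicates 1 and 3 and 6.05 in replicate 2, the highest of all 15 libraries.

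The ratio of HBE1 to both gamma genes was 0.303 to 0.335 in the control, 0.377 to 0.428 in JQ1 without sgRNA, 0.443 to 0.510 in JQ1 with sgRNA and 0.309 to 0.352 in JQ1-FCPF without sgRNA. JQ1-FCPF with sgRNA had 0.342 and 0.353 in replicates 1 and 3 and 0.544 in replicate 2. The ratio of HBZ to both alpha genes ran the other way, from 0.718 to 0.803 in the control down to 0.489 to 0.566 in JQ1 without sgRNA and 0.575 to 0.621 in JQ1 with sgRNA. It was 0.684 to 0.705 in JQ1-FCPF without sgRNA, and 0.664, 0.533 and 0.703 in replicates 1 to 3 of JQ1-FCPF with sgRNA. The ratio of HBD to both gamma genes was 0.00928 to 0.0136 in the control, 0.00595 to 0.00687 in JQ1 without sgRNA and 0.00616 to 0.00684 in JQ1 with sgRNA, so it was lower in all 6 JQ1 libraries than in any control library. It was 0.00851 to 0.0119 in JQ1-FCPF without sgRNA, inside or just under the control range, and 0.0105, 0.00577 and 0.0113 in replicates 1 to 3 of JQ1-FCPF with sgRNA, whose replicate 2 was the lowest of the 15. The ratio of HBQ1 to both alpha genes was 0.259 to 0.320 in the control and 0.329 to 0.386 over the 6 JQ1 libraries. It overlapped both ranges in JQ1-FCPF without sgRNA (0.273 to 0.332) and ran from 0.242 to 0.390 in JQ1-FCPF with sgRNA, the lowest and the highest of the 15. Between near-identical copies the ratios varied less, with HBA1 over HBA2 at group means of 2.27 to 2.35 and HBG2 over HBG1 at 4.02 to 4.63. By library, HBG2 over HBG1 was 4.56 to 4.72 in the control. It was lower in all 6 JQ1 libraries, at 4.13 to 4.47 without sgRNA and 3.8 to 4.16 with it. In JQ1-FCPF it was 4.17 to 4.94 without sgRNA, on both sides of the control range, and 4.37 to 4.43 with it.

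**Figure D3:**
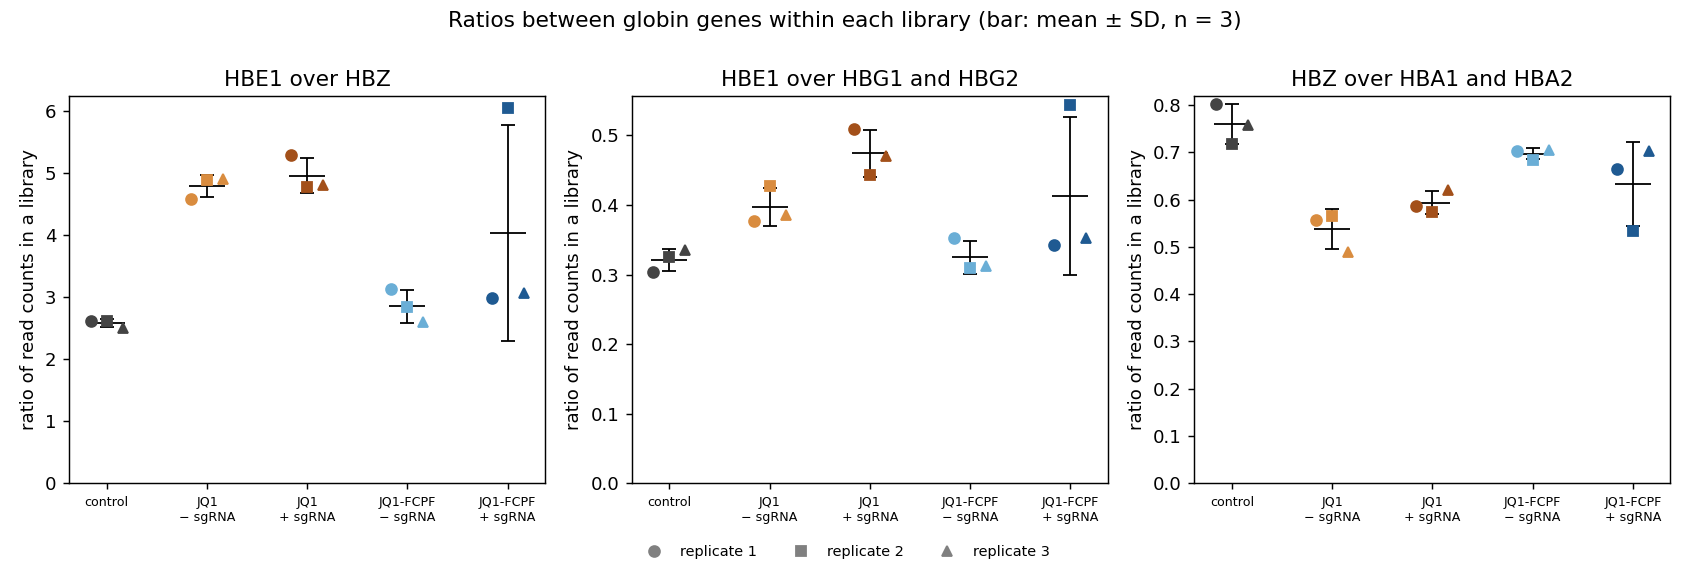
Ratio of read counts between globin genes within each library, for HBE1 over HBZ, HBE1 over the sum of HBG1 and HBG2, and HBZ over the sum of HBA1 and HBA2. Points are libraries and bars the mean and SD of 3. The 6 JQ1 libraries had HBE1 over HBZ of 4.59 to 5.29, above the control (2.51 to 2.62), and replicate 2 of JQ1-FCPF with sgRNA, at 6.05, was set apart from the other libraries of its group.

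Correlations of log2 CPM over the 15 libraries are given as a description, since the libraries share handling and groups. Pearson's r was 0.95 for HBA1 with HBA2, 0.95 for HBA1 with HBG2, 0.92 for HBG1 with HBG2, 0.92 for HBZ with HBD and 0.83 for HBE1 with HBQ1. HBZ also had an r of 0.80 with HBA2, 0.74 with HBA1 and 0.72 with HBG2, HBD one of 0.69 with HBA2, and HBQ1 one of 0.76 with HBG1 and 0.68 with HBG2, so the genes did not part into separate sets. HBE1 had an r of -0.28 with HBZ and -0.41 with HBD.

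The genes whose log2 CPM was most like that of HBG2, the most abundant globin, were ATP5MG (r = 0.982), RPS7 (0.981), SSR4 (0.976), UQCRQ (0.975) and FAU (0.974), over 15 libraries. ATP5MG and UQCRQ encode subunits of the respiratory chain and its ATP synthase, and RPS7 and FAU encode small ribosomal subunit proteins. HBG2 was lowest, at 444 CPM, in the library with the lowest ribosomal protein share (8.442%) and highest, at 851 CPM, in the one with the highest share (12.151%, JQ1 without sgRNA replicate 1). The ribosomal protein share was 11.373% to 12.151% in JQ1 without sgRNA and 9.292% to 10.794% in the control, so it was higher in each library of 1 group in which HBE1 was called. In JQ1 with sgRNA it was 8.442%, 11.656% and 10.941%. Its part in the globin results was not tested.

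**Figure D4:**
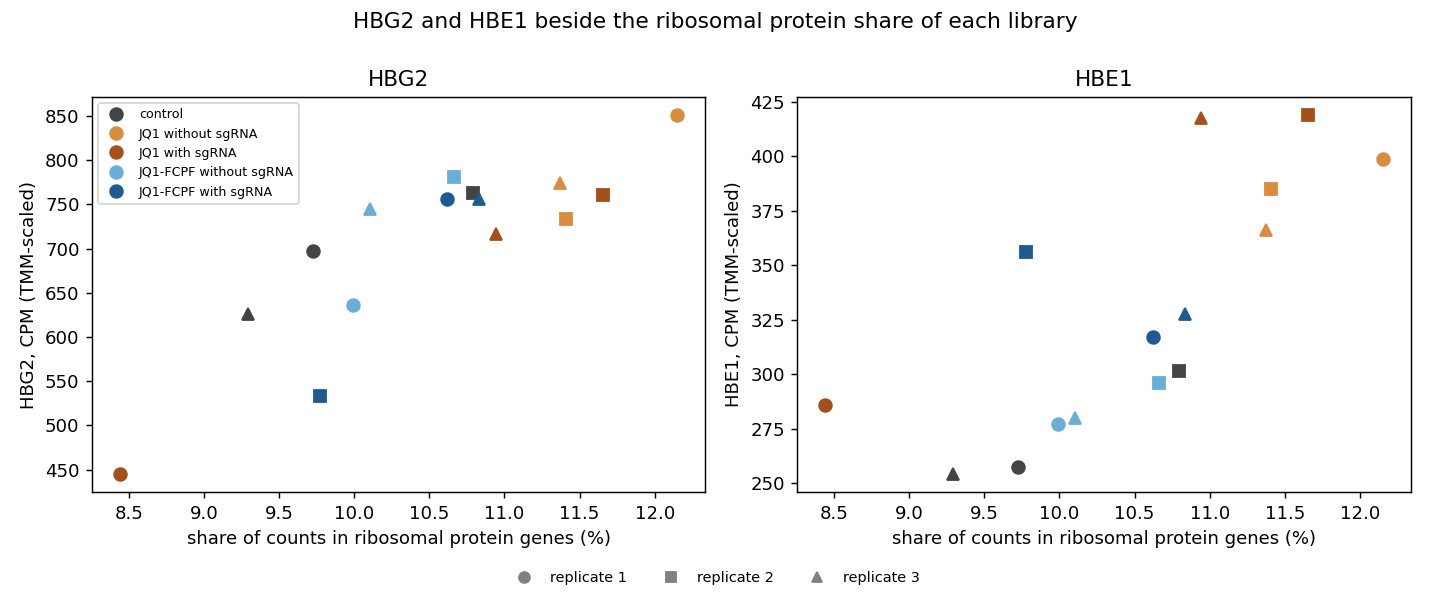
HBG2 and HBE1 level (CPM scaled by TMM, axes not starting at 0) in each library against the share of its counts in ribosomal protein genes. Colours give the group and shapes the replicate. HBG2 ran from 444 CPM at a share of 8.442% to 851 CPM at 12.151%, and replicate 2 of JQ1-FCPF with sgRNA combined a HBE1 level of 356 CPM with a share of 9.776%.

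Transcription factors and cofactors of the globin genes were measured beside them as a list of 23, all tested. Under JQ1 without sgRNA 3 of 23 were called, all lower, and these were LDB1, ZFPM1 and HIC2. That share is near the 12.3% called among all genes. LDB1, which bridges the locus control region to globin promoters, had a log2 fold change of -0.44 (edgeR adjusted p = 0.00716). HIC2, a repressor of BCL11A transcription, had one of -0.35 (edgeR adjusted p = 0.0235). ZFPM1 (FOG1), the cofactor of GATA1, had one of -0.43 (edgeR adjusted p = 0.0283). The median of the list was -0.21, against 0 for all genes, and without the pair of libraries that stood apart 12 of 23 were called, where 26.9% of all genes were. DESeq2 called 7, and leaving out 1 library gave 0 to 7 calls. LDB1 was lost without control replicate 3 (edgeR adjusted p = 0.0572). ZFPM1 and HIC2 were lost without control replicate 2 or 3 or any 1 JQ1 without sgRNA library (edgeR adjusted p up to 0.136 and 0.134). Here and below, the share of all genes called by DESeq2 or on leaving out 1 library was not computed. Counts in those settings are therefore no result about the list as such.

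JQ1 with sgRNA had 5 of 23 called, all lower, where 14.2% of all genes were called, with the smallest p for ZFPM1 (-0.64, edgeR adjusted p = 0.00288), HIC2 (-0.45, 0.00517) and KLF1 (-0.49, 0.0194). KLF1 is an activator of HBB through the CACCC box. The call of KLF1 was lost in 4 of 23 alternatives, without control replicate 2 (edgeR adjusted p = 0.0867), control replicate 3 (0.0743) or JQ1 with sgRNA replicate 1 (-0.31, 0.0583) and in 1 other. Leaving out 1 library gave 2 to 6 calls in the list, and leaving out the pair that stood apart gave 8 of 23, where 22.8% of all genes were called, with KLF1 at -0.31 (edgeR adjusted p = 0.0186). JQ1-FCPF without sgRNA had 0 of 23 called by edgeR or DESeq2, with 1 at an unadjusted p under 0.05. BCL11A, the repressor of the gamma genes, stood at a mean of 3.13 to 3.78 CPM in the 5 groups and was called in none of the comparisons.

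In JQ1-FCPF with sgRNA, a group in which no globin gene was called against the control, 7 of 23 were lower than in the control and 1 was higher, where 7.21% of all genes were called. Without the pair of libraries that stood apart 10 of 23 were called, where 11.1% of all genes were. NFE2, a factor that binds the locus control region, stood at 265, 304 and 284 CPM in the control and at 93.3, 176 and 130 CPM in this group (log2 fold change -1.09 ± 0.15 SE, edgeR adjusted p = 7.72e-05). LMO2, a bridging protein of the TAL1 complex, was 1.71-fold lower (edgeR adjusted p = 2.56e-05) and KLF1 1.85-fold lower (edgeR adjusted p = 0.000236), while NFIA was 1.47-fold higher (edgeR adjusted p = 0.0206). Against JQ1-FCPF without sgRNA, 7 of 23 were called (10 without the pair), all 7 lower, where 6.25% of all genes were called (10.2% without the pair). Of these, NFE2 was 2.2-fold, LMO2 1.68-fold and GATA2 1.43-fold lower (edgeR adjusted p = 5.81e-05, 4.66e-05 and 0.000994). Each of NFE2, LMO2 and KLF1 kept its call against the control in all 23 alternatives. GATA1 stood at 270 ± 17.0 CPM in the control and 224 ± 22.5 CPM here (SD, n = 3) and was not called.

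Between the compounds without sgRNA, 3 of 23 were called, all higher with JQ1-FCPF (LDB1, ZFPM1 and HIC2), where 7.8% of all genes were called. Leaving out 1 library gave 0 to 6 calls, and leaving out the pair that stood apart gave 8, where 22.6% of all genes were called. With sgRNA 3 were called, all lower with JQ1-FCPF (NFE2, LMO2 and TAL1), where 2.95% of all genes were called. Leaving out 1 library gave 1 to 6 calls, the alternatives together 0 to 9, and leaving out the pair 9, where 20.2% of all genes were called. Under JQ1 the sgRNA gave 0 calls by edgeR or DESeq2 and 1 at an unadjusted p under 0.05. The interaction was called for 2 of 23, NFE2 and LMO2, where 0.786% of all genes were called. It was called for 5 without the pair and for 0 to 4 on leaving out 1 library.

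Of 17 genes of haem synthesis, iron supply and haemoglobin assembly 15 were tested, and AHSP, which stabilises free alpha chains, was at a mean of 0.166 to 0.392 CPM and not tested. TFRC, the transferrin receptor that brings iron into the cell, was the 1 gene called, in 3 of the comparisons with the control. In these, 12.3%, 14.2% and 7.21% of all genes were called. Without the pair of libraries that stood apart, 4, 2 and 1 of the list were called, where 26.9%, 22.8% and 11.1% of all genes were. It stood at 421 ± 43.9 CPM in the control, 273 ± 11.5 in JQ1 without sgRNA, 283 ± 16.8 in JQ1 with sgRNA, 346 ± 50.2 in JQ1-FCPF without sgRNA and 260 ± 55.2 in JQ1-FCPF with sgRNA (SD, n = 3). It fell in JQ1 without sgRNA (1.54-fold, edgeR adjusted p = 0.00619), JQ1 with sgRNA (1.49-fold, 0.00896) and JQ1-FCPF with sgRNA (1.62-fold, 0.00237). Without control replicate 3 both JQ1 calls were lost (edgeR adjusted p = 0.0507 and 0.0561). ALAS2, the erythroid enzyme that starts haem synthesis, stood at a mean of 15 to 18 CPM in the 5 groups and was not called.

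Of 16 neighbours in and beside the clusters 15 were tested, and each comparison called 0 or 1 of them, where the share of all genes called ran up to 14.2%. Each called 0 to 3 without the pair of libraries that stood apart. In that setting 3 were called in JQ1 without sgRNA against the control and between the compounds without sgRNA. There 26.9% and 22.6% of all genes were called. Comparisons with 1 neighbour called had 10.2% to 22.8% of all genes called. FAM234A, near the alpha cluster, rose in JQ1 without sgRNA (log2 fold change 0.37 ± 0.11 SE, edgeR adjusted p = 0.0333) from 61.8 ± 1.75 to 79.7 ± 3.31 CPM (SD, n = 3), and was lower with JQ1-FCPF than with JQ1 (-0.42 ± 0.11 SE, edgeR adjusted p = 0.0252). Both calls were lost on leaving out any 1 of the libraries compared, with edgeR adjusted p up to 0.107 and 0.0853. TRIM21, near the beta cluster, was lower in JQ1-FCPF with sgRNA than in the control, by 1.49-fold (edgeR adjusted p = 0.0317), a call lost in 4 of 23 alternatives, among them those without control replicate 2, control replicate 3 or JQ1-FCPF with sgRNA replicate 2 (edgeR adjusted p up to 0.141). NPRL3, whose introns hold the distal enhancers of the alpha cluster, stood at a mean of 114 to 124 CPM in the 5 groups and was not called. HBBP1 and BGLT3, transcribed between the gamma genes and HBD, stood at a mean of 3.46 to 4.70 and 1.59 to 2.91 CPM and were not called.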

How the data were processed

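Total RNA of 15 K562 libraries was sequenced. The authors deposited raw read counts per gene, 1 table per library, with exon coordinates and exonic length per the file headers. The aligner, kit, strand setting and handling of reads with several matches were not given in the sources used here. Among 57500 gene identifiers, GENCODE 29 (GRCh38) held 56898, with identical start and end for 96.3%, and symbols were found for 40907.

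The counts went into edgeR 4.0.16 (R 4.3.3), with filterByExpr (15517 genes kept) and TMM scaling. A quasi-likelihood fit of 5 group means was made to all 15 libraries. This gave a biological coefficient of variation of 11.1%. The code was also run on simulated data that held no library standing apart, so that run does not cover this feature of the data. There were 9 comparisons, the interaction among them. Genes were called at a Benjamini-Hochberg adjusted p under 0.05 over all genes tested. Levels are TMM-scaled CPM, and log2 CPM has a prior count of 2. No pair of libraries in a group agreed within sampling noise (chi-square per degree of freedom 2.96 to 48.95).

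The members and lists were chosen with earlier results of these data known. All 10 globin genes are named, with up to 3 called genes of smallest p per other list and comparison, any marker, and the 5 genes most like the most abundant globin (mean CPM of at least 5). GATA1, BCL11A, ALAS2, AHSP, NPRL3, HBBP1, BGLT3 and NFIA were added after their values were seen. Alternatives were DESeq2 1.42.0, its size factors, no filter, only the groups compared, the replicate letter as a block, summed copies and leaving out each library. Leaving out 2 libraries together and scaling by library totals were added after the data were seen. Some single marker genes are not reported here.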

Additional observations from a re-analysis of the deposited data

Results flagged for a closer look

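For 2 regulators of the globin genes the effect of the sgRNA differed between the compounds by the test of the interaction. NFE2 was lower with sgRNA under JQ1-FCPF (log2 fold change -1.14) and had a log2 fold change of -0.16 under JQ1, an interaction of -0.98 (95% interval -1.42 to -0.54, edgeR adjusted p = 0.0276). LMO2 had log2 fold changes of -0.75 and -0.11, an interaction of -0.64 (95% interval -0.93 to -0.35, edgeR adjusted p = 0.0255). Over 23 alternatives the direction held in each, and the call was lost in 10 for NFE2 (edgeR adjusted p up to 0.0907) and in 8 for LMO2 (up to 0.0981), mostly on leaving out 1 library of the 4 groups.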

How the results depend on the processing

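For JQ1 without sgRNA against the control, 2 globin genes were called, 1 with the size factors of DESeq2, 4 with no filter, 5 when only the groups compared were fitted and 5 without the 2 libraries that stood apart. For JQ1 with sgRNA 2 were called, 3 with no filter and 4 without those libraries. For JQ1-FCPF with sgRNA against the control 0 became 1 with no filter and 2 without those libraries, and against JQ1-FCPF without sgRNA 0 became 1 and 1. Between the compounds without sgRNA 1 became 3 with only the groups compared and 4 without those libraries, and with sgRNA 0 became 2 with no filter and 5 without those libraries. HBB is among these calls for JQ1-FCPF with sgRNA, where it enters only with no filter or through the 2 libraries that hold its reads; for the rest the cause was not tested. Leaving out 1 library gave 0 to 4 calls for JQ1 without sgRNA and 0 to 3 for JQ1 with sgRNA, 0 to 0 for JQ1-FCPF without sgRNA and 0 to 1 with sgRNA, all against the control. It gave 0 to 0 for the sgRNA under JQ1, 0 to 1 under JQ1-FCPF, 0 to 2 and 0 to 3 between the compounds without and with sgRNA, and 0 to 0 for the interaction. The share of all genes called was not computed on leaving out 1 library, with the size factors of DESeq2 or with the replicate block. It was not computed for JQ1 with sgRNA with no filter either. The counts in these settings are therefore no result about the globin genes as such. With the replicate letter as a block the counts were as without it (2 in each JQ1 group against the control, 1 between the compounds without sgRNA and 0 in the other 6 comparisons). Same-letter libraries had correlations of -0.24 to 0.31. Libraries with different letters were not correlated beside them, so whether the letters mark pairs stays undecided. Signs were followed over the alternatives for the larger changes of the main fit, HBM left aside. Of these, HBD and HBZ reversed in JQ1-FCPF with sgRNA against the control (from -0.31 and -0.21 to 0.03 each). That was without its replicate 2 or without both libraries. HBQ1 reversed for the sgRNA under JQ1 (from -0.22 to 0.01) without JQ1 with sgRNA replicate 1 or without both. Leaving out 1 library gave -0.56 to 0.03 for that HBD value, -0.35 to 0.03 for HBZ and -0.39 to 0.01 for HBQ1. Other values reversed too without both libraries. In JQ1 with sgRNA against the control these were HBM (from -0.25 to 0.29), HBG2 (-0.12 to 0.09), HBA1 (-0.11 to 0.09) and HBA2 (-0.13 to 0.05). Further ones included HBZ (-0.14 to 0.09) and HBD (-0.16 to 0.17) for the sgRNA under JQ1-FCPF. Low counts limit HBM, HBB and HBD.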

Other observations

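OR51B5, an olfactory receptor gene whose model shares exons with HBG2 and HBE1, was looked at after its reads were seen. It had 19370 reads in all and stood at 77.82 to 96.64 CPM over the 15 libraries, above HBQ1 and HBA2. It was called in none of the 9 comparisons (edgeR), and its log2 fold changes ran from -0.08 to 0.19. Where HBE1 rose in JQ1 without sgRNA by 0.50, OR51B5 had 0.11 (95% interval -0.08 to 0.30).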
